A study of Mus musculus with 4 samples.

Results

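The widest CTCF regions of mouse heart muscle cells were selected on their width in the deposited region list of the control library: at least 500 bp, on chromosomes 1 to 19. The rule left 847 of 19701 regions, or 4.30%, and the other 18854 were narrower. Widths are therefore given as a description, and so are the measures that rise with width, the read pileup and the fold enrichment of the same list. Position relative to genes, DNA sequence and the region list of the other library were no part of the rule. The values come from 2 ChIP libraries on C57BL/6 mice, 1 labelled CTCF knockout and 1 labelled control. Each was made from isolated cardiac myocytes of the left ventricle, pooled from 3 hearts, with the same CTCF antibody. The sources used here do not name the deleted allele, the Cre driver or the age of the mice. There is 1 library per genotype, so no test between genotypes is possible, and intervals given below are 95% intervals that cover counting error only. A list of CTCF regions holds no expression values, so neither the labelled cell type nor the loss of CTCF could be checked. The library labelled CTCF knockout held 15814 regions on the same chromosomes and is called by its label throughout.

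CTCF is a zinc-finger protein that binds a long, strongly conserved DNA sequence. It blocks cohesin as cohesin extrudes loops of chromatin, so pairs of bound sites mark the borders of loops and domains, and it also binds many promoters. In ChIP-seq, DNA fragments bound to the protein are sequenced and pile up around each site, and a region caller reports the stretch over which the pileup exceeds the local background. The width of a called region can follow the number of reads, the length of the fragments and how many bound sites lie next to each other, and these were not separated here.

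Some of the wide regions lay on promoters whose sequence holds a match to the CTCF core, and 5 such stretches are shown because they are among the strongest or widest regions. Steap1, 1 of the 12 widest regions with a low local background, was added after its values were seen. Steap1 codes for a membrane protein of the STEAP family, Vps36 for a subunit of an endosomal sorting complex, Nipsnap2 for a mitochondrial protein, Rsad1 for a radical S-adenosylmethionine domain protein and Trrap for the scaffold of histone acetyltransferase complexes. The sequences are RefSeq, GRCm38.p6 (mm10), 60 bases each, 5′ to 3′ on the strand of the gene, and lie wholly before the gene start. Capitals mark a match to the CTCF core as searched here, CC and any 3 bases followed by AGGNGGC, which reads in the opposite direction in Nipsnap2 and Trrap. The stretches are chr5:5749356-5749415 on the minus strand for Steap1, chr8:22192731-22192790 on the plus strand for Vps36, chr5:129724939-129724998 on the plus strand for Nipsnap2, chr11:94549264-94549323 on the minus strand for Rsad1 and chr5:144768715-144768774 on the plus strand for Trrap.
Steap1: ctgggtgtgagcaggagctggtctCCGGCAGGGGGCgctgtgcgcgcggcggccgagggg
Vps36: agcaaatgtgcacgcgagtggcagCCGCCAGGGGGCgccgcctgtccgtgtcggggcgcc
Nipsnap2: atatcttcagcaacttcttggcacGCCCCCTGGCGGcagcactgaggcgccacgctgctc
Rsad1: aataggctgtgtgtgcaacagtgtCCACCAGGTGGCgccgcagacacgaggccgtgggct
Trrap: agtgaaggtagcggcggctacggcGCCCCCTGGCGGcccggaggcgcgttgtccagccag
The match lay 1 bp from the control summit, the base of highest pileup, at Steap1, 18 bp at Vps36, 17 bp at Nipsnap2, 142 bp at Rsad1 and 56 bp at Trrap. The control region was overlapped by a region of the library labelled CTCF knockout at all 5 promoters. The fold enrichment, the pileup over the local background as the authors' caller gave it, was 10.8 in the library labelled CTCF knockout and 18.99 in the control at Steap1. At Vps36 it was 30.3 in the library labelled CTCF knockout and 33.6 in the control. These are values of separate calls, set side by side, and no direction is read from them.

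The wide regions had a median width of 576 bp (quartiles 533 and 663.5 bp), against 225 bp for the other control regions. Most were only moderately wide: 502 measured under 600 bp, 254 measured 600 bp to under 800 bp, 58 measured 800 bp to under 1000 bp and 33 measured 1000 bp or more. They made up 4.30% of the control regions and held 0.557 of the 5.13 Mb that the control list covers, or 10.9%. Their median fold enrichment was 11.2 (range 2.10 to 41.4), against 6.98 for the others. The pileup at the summit, recovered from the deposited values as a whole number of reads, had a median of 26 reads in the wide regions and 15 reads in the others. At the 500 bp limit, the 61 regions of 500 to 509 bp had a median fold enrichment of 9.92 and a median pileup of 22 reads, and the 81 regions of 490 to 499 bp had 10.1 and 23 reads. Of these, 59 of the 61 and 77 of the 81 were overlapped in the library labelled CTCF knockout. Within 1 kb of a gene end lay 16 of the 61, or 26.2% (16.8 to 38.4%), and 36 of the 81, or 44.4% (34.1 to 55.3%), so the share was lower just inside the limit than just outside it.

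The very widest regions lay where the local background was high. A local background of 5 reads or more, a limit set after the values were seen, was found at 46 of the 847 wide regions, or 5.43%, against 1.19% of all control regions. These 46 lay at 17 loci and included 21 of the 33 regions of 1000 bp or more and all 10 of the widest. Their median fold enrichment was 3.65, with a median pileup of 156 reads over a background of 56.8 reads. None lay on a promoter window, and 30 lay between genes. All 46 were overlapped in the library labelled CTCF knockout (interval 92.3 to 100%), where the widest overlapping region measured 924 bp at the median, against 895.5 bp in the control.

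**Figure D1:**
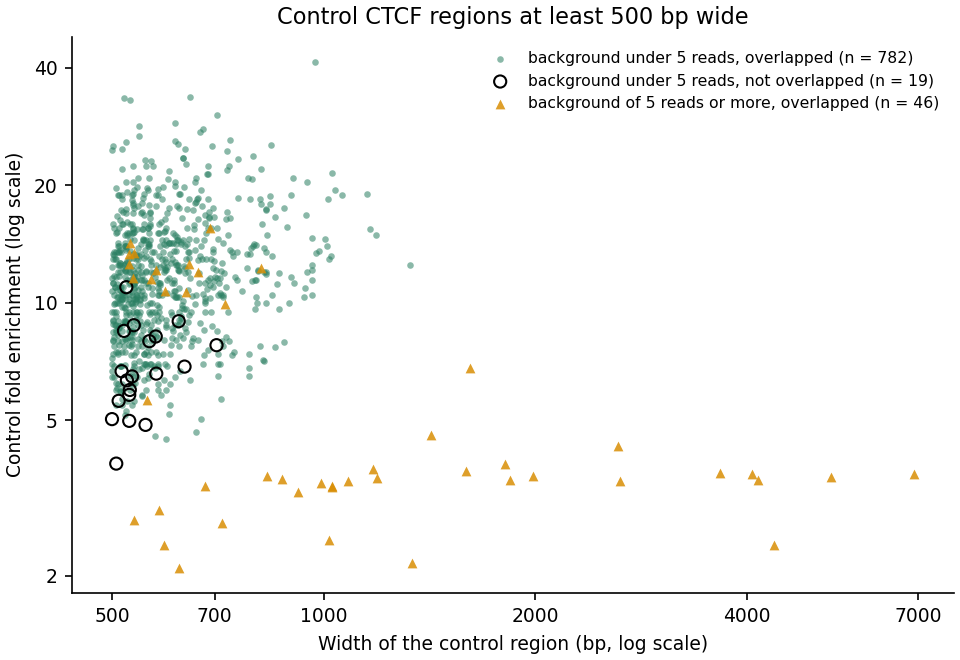
Width (x axis, bp, log scale) against control fold enrichment (y axis, log scale) of the 847 control regions of at least 500 bp, 1 symbol per region. Triangles are the 46 regions with a local background of 5 reads or more, which reach 6898 bp at folds near 3.65, and open circles are the 19 regions with no overlap in the library labelled CTCF knockout, none above a fold of 10.97.

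The locus with the most wide regions started at position 2999964 of chromosome 9 and ended at position 3038336. It held 21 regions in the library labelled CTCF knockout and 18 in the control, 15 of them wide, and no protein-coding gene lay within 100 kb. Fold enrichments ran from 2.47 to 3.71 over all 21 regions of the library labelled CTCF knockout and from 3.27 to 3.70 over the 15 wide control regions. The highest summits of the same regions had 270 reads in the library labelled CTCF knockout and 268 in the control. The widest region of all, 6898 bp, was here. On chromosome 14 a 4069 bp control region (19415663 to 19419731, fold enrichment 3.65) met a region of 4067 bp with a fold enrichment of 3.56 in the library labelled CTCF knockout. On chromosome 17, the locus from 39842977 to 39848831 held the pseudogene Rn18s-rs5, named for ribosomal RNA, and the long non-coding RNA AY036118. There, 7 regions of the library labelled CTCF knockout (fold enrichment 1.78 to 2.53) lay beside 2 control regions, both wide (2.16 and 2.40). A 2619 bp control region on the same chromosome (13550618 to 13553236) overlapped the long non-coding RNA 2700054A10Rik and met a region of 2624 bp in the library labelled CTCF knockout. The sources used here do not say how the authors treated reads that match more than 1 place, so the enrichment at these loci is uncertain, and the part of such reads was not tested.

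Another array had higher fold enrichments. On chromosome 6, between 47654967 and 47772487, 23 regions of the library labelled CTCF knockout and 22 control regions were called, and 13 of the control regions were wide. Their summits were spaced at a median of 4332.5 bp. The annotation places Rn4.5s there, as a ribosomal RNA gene, with protein-coding gene models such as Gm40369 and Gm36327. The wide control regions of this array had fold enrichments of 9.96 to 14.2 with 84 to 154 reads, over backgrounds of 6.17 to 11.9 reads. All 13 were overlapped in the library labelled CTCF knockout. As with the other arrays, reads of near-identical copies may be split or shared between them.

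The remaining 801 wide regions, with a background under 5 reads, measured 500 to 1327 bp, with a median of 569 bp and a median fold enrichment of 11.5. The widest of them lay in or near single genes and were chosen after their values were seen. The Tjp3 region, within the gene of a tight junction scaffold (chromosome 10, 81288788 to 81290114), was 1327 bp wide with a fold enrichment of 12.5. It met regions of 137 and 386 bp in the library labelled CTCF knockout, with fold enrichments of 5.87 and 16.4. The Tacc2 region, within the gene of a coiled-coil centrosomal protein (chromosome 7, 130761852 to 130763037), was 1186 bp wide, and met regions of 570 and 194 bp with fold enrichments of 7.31 and 6.92. Within Tmprss6, the gene of a membrane protease that controls hepcidin, a single region of 948 bp in the library labelled CTCF knockout (fold enrichment 16.7) lay over 1163 bp in the control (15.5). At Steap1 a region of 574 bp in the library labelled CTCF knockout lay over 1151 bp in the control. At Wif1, the gene of a secreted Wnt inhibitor, the widths were 965 bp in the library labelled CTCF knockout and 1063 bp in the control.

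In 6 of these 12 widest regions the library labelled CTCF knockout had 2 separate regions where the control had 1. Besides Tjp3 and Tacc2 these were the regions at Ankrd9 (12.5 kb away), Lhpp, Zmym2 and Ap5b1. At Zmym2, the gene of a zinc-finger protein, the regions of the library labelled CTCF knockout measured 194 and 264 bp, with fold enrichments of 5.28 and 6.48 and summits 770 bp apart, against 1 control region of 1010 bp at a fold enrichment of 13.96. At Ap5b1, the gene of an adaptor complex subunit, they measured 700 and 274 bp, with fold enrichments of 17.3 and 11.9, against 1004 bp at 14.6 in the control.

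**Figure D2:**
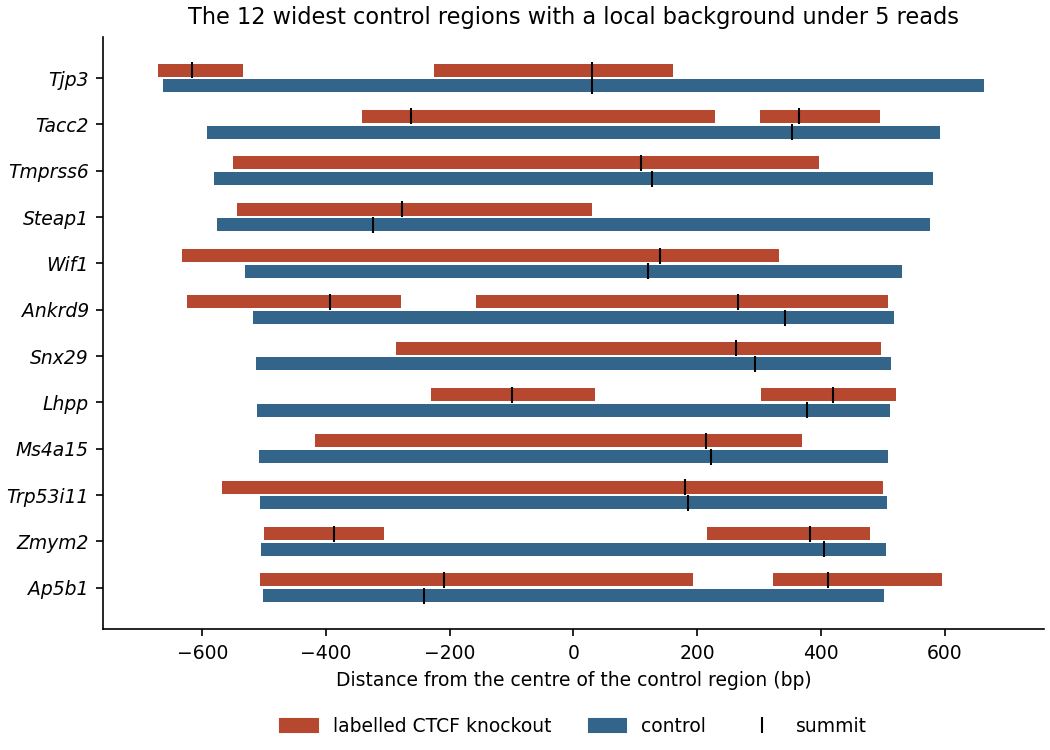
Extent of the 12 widest control regions with a local background under 5 reads, each drawn around its own centre (x axis, distance in bp), labelled by the nearest protein-coding gene, with the library labelled CTCF knockout above the control and a tick at each summit. The library labelled CTCF knockout shows 2 separate bars in 6 of the 12 rows, and in the Tjp3 row they measure 137 and 386 bp, over a control region of 1327 bp.

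Over all wide regions, 78 of 847 (9.21%, interval 7.44 to 11.3%) were overlapped by 2 or more regions of the library labelled CTCF knockout, against 0.366% of the other control regions and 0.746% of all of them. Wider regions have more room to be overlapped more than once, so part of this follows from the rule. The reverse was also found: 69 of the 594 regions of at least 500 bp in the library labelled CTCF knockout (11.6%, interval 9.28 to 14.4%) were overlapped by 2 or more control regions, against 0.904% of all its regions. Of the 78 wide control regions, 75 were overlapped by exactly 2. The outermost summits of the library labelled CTCF knockout were a median of 402.5 bp apart, in control regions of 690 bp at the median. The share was 5.38% of regions under 600 bp, 8.66% at 600 bp to under 800 bp, 29.3% at 800 bp to under 1000 bp and 36.4% at 1000 bp or more. The control summit itself lay in the central part of most wide regions, but less often than in the others. It lay within the outer 25% of the width, on either side, in 24.8% of wide regions, against 8.82% of the others. This measure is scaled by the width that chose the regions, so part of the difference can follow from the rule.

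Nearly all wide regions were called again in the library labelled CTCF knockout. An overlap of at least 1 bp was found for 828 of 847, or 97.8% (96.5 to 98.6%), against 67.8% (67.1 to 68.5%) of the other control regions and 69.1% of all control regions. The difference of 29.96 percentage points had an interval of 28.6 to 31.0. A wide region also has more bases with which to be overlapped. Among the other regions the share rose with width, at 44.6% below 200 bp, 77.4% at 200 bp to under 300 bp, 88.1% at 300 bp to under 400 bp and 93.2% at 400 bp to under 500 bp.

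Fold enrichment moved with both width and overlap. With the other regions weighted to the same 10 bins of control fold enrichment, 88.3% of them were overlapped, and the difference to the wide regions was 9.45 points. In the highest bin, with fold enrichments of 12.1 to 41.4, 356 of 356 wide regions and 98.8% of 1614 others were overlapped. In the bin of 6.43 to 6.98 the wide regions stood at 38 of 42, or 90.5% (77.9 to 96.2%), against 62.9% (60.7 to 65.0%) of 1928 others. The lowest bin held 31 wide regions, of which 30 were overlapped, and 29 of the 31 had a background of 5 reads or more. Without the high-background regions the weighted difference was 7.25 points, a comparison added after the data were seen.

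**Figure D3:**
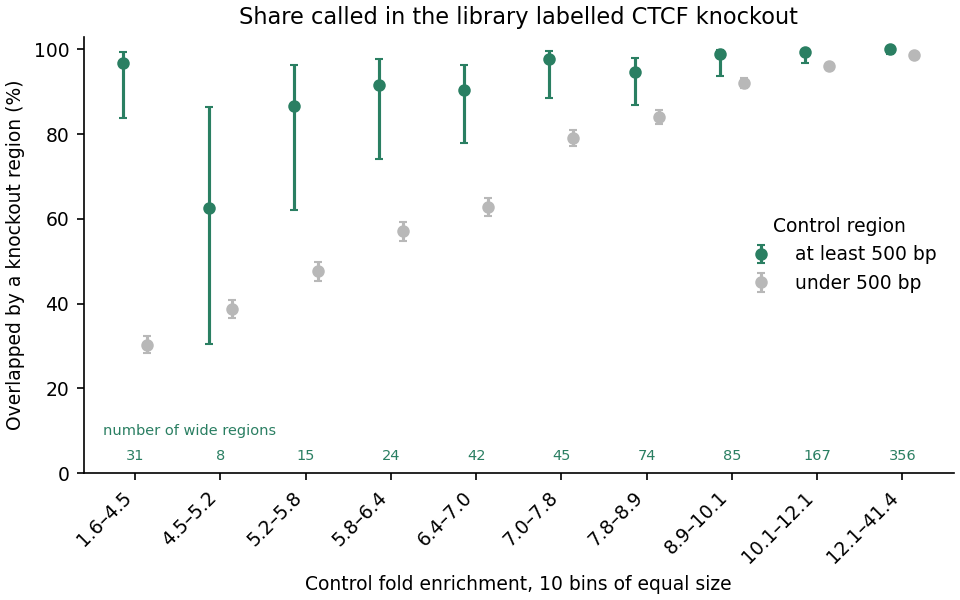
Share of control regions overlapped by a region of the library labelled CTCF knockout (y axis, %), in 10 equal-sized bins of control fold enrichment (x axis), for regions of at least 500 bp (left point of each pair, with their number below) and under 500 bp (right point). Bars are Wilson 95% intervals. The wide regions reach 100% in the highest bin, where the others stand at 98.8%.

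The 10 wide regions of highest fold enrichment were all overlapped. The first lay at an end of Kdm3b, the gene of a histone demethylase (chromosome 18, 34776557 to 34777528). Its fold enrichment was 36.7 in the library labelled CTCF knockout and 41.4 in the control, and its width was 1005 bp in the library labelled CTCF knockout and 972 bp in the control. At Vps36 (chromosome 8, 22192655 to 22193300) the widths were 552 bp in the library labelled CTCF knockout and 646 bp in the control. At Pkn3, the gene of a protein kinase, the fold enrichments were 22.6 in the library labelled CTCF knockout and 33.4 in the control. The widths there were 880 bp in the library labelled CTCF knockout and 520 bp in the control. Another control region lay 0.179 kb from the control region at Pkn3, so these widths need not cover the same sites. Close to Dgat2, the gene of an enzyme of triglyceride synthesis, 1.93 kb away, the fold enrichments were 27.0 in the library labelled CTCF knockout and 28.4 in the control. Further regions among the 10 were those at Nipsnap2, Rsad1, Trrap, Ctif and Sec22c. Their fold enrichments in the library labelled CTCF knockout were 25.9, 16.7, 21.9, 26.8 and 22.9, against 30.2, 28.9, 27.9, 27.4 and 26.7 in the control, in the order named.

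The 19 wide regions without an overlap in the library labelled CTCF knockout had low fold enrichments and pileups for the group. Their fold enrichments were 3.87 to 10.97, their pileups 9 to 21 reads and their widths 500 to 704 bp. None had a background of 5 reads or more. By position, 7 lay at gene ends, 8 in gene bodies and 4 between genes. The strongest was within Ccdc65, a gene of a ciliary protein (chromosome 15, 98710426 to 98710949), at a fold enrichment of 10.97 and 21 reads, and the nearest region of the library labelled CTCF knockout was 2.17 kb away. Next came Eci1, the gene of a mitochondrial enzyme of fatty acid oxidation (chromosome 17, 24437023 to 24437644), at 8.97. The region at the starts of Ctsa, the gene of cathepsin A, and Neurl2, on opposite strands (chromosome 2, 164832537 to 164833073) had 8.76. A region 18.8 kb from Grxcr1 had 8.47 and that at Ints10, the gene of an Integrator subunit, 8.20. The widest was within Mapk4, the gene of an atypical MAP kinase, at 704 bp and 7.79. At Tgfb1, the gene of a growth factor that drives fibrosis (chromosome 7, 25687715 to 25688348), and at Arhgap27, the widths were 634 and 578 bp and the fold enrichments 6.87 and 6.59. Tgfb1 had another, stronger wide region 0.484 kb away (25686649 to 25687231), which was overlapped, with fold enrichments of 9.64 in the library labelled CTCF knockout and 15.1 in the control. For 5 of the 19 the nearest region of the library labelled CTCF knockout lay within 1 kb, as at Tgfb1, 0.468 kb away. A missing call at such low pileups shows only that no region passed the caller's threshold there.

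Where a wide control region was overlapped, its partner in the library labelled CTCF knockout was usually narrower. The widest partner of the 828 overlapped regions had a median width of 411 bp, against 577 bp for the control regions themselves, and it was narrower than the control region in 713 of them, or 86.1%. The same was so at 54.9% of the other overlapped regions. Since the control regions were chosen for their width, a lower width in a second library is partly set by the choice. The partner was itself at least 500 bp wide in 253 of 828, or 30.6%, against 4.83% of all overlapped control regions. The regions of the library labelled CTCF knockout covered a median of 68.7% of the bases of a wide region. Their summits lay a median of 26 bp from the control summit, and within 100 bp at 738 regions, or 89.1%, against 94.8% of the other overlapped regions.

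The highest pileup among the overlapping regions of the library labelled CTCF knockout was 21 reads at the median, against 26 reads in the control. The ratio of these pileups, library labelled CTCF knockout over control, had a median of 0.836 at wide regions and 0.870 at other overlapped regions. The lowest local background in each list was 0.851 reads in the library labelled CTCF knockout and 1.01 reads in the control, a ratio of 0.846. The sources used here do not give the depth of the libraries, and its part in the widths and calls was not tested.

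**Figure D4:**
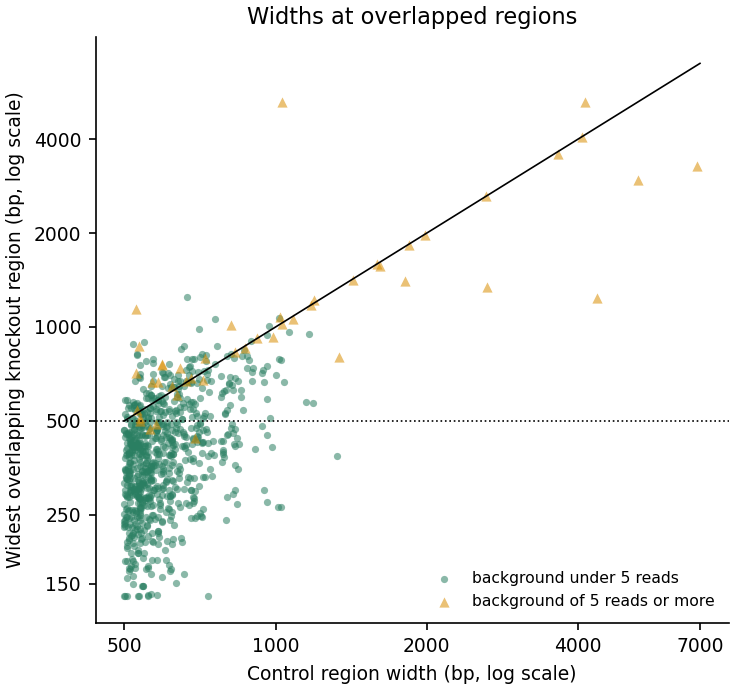
Width of the widest overlapping region in the library labelled CTCF knockout (y axis, bp, log scale) against the width of the control region (x axis, bp, log scale) for the 828 overlapped wide regions, with the line of equal width and a dotted line at 500 bp. Of the 828 partners 713 lie below the line of equal width, and the triangles, regions with a local background of 5 reads or more, lie mostly close to it.

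The choice was also made in reverse. The library labelled CTCF knockout had 594 regions of at least 500 bp, or 3.76% of its 15814, and 592 of them, or 99.7% (98.8 to 99.91%), overlapped a control region, against 85.6% of its other regions and 86.1% of all its regions. Their widest control partner had a median width of 469 bp, against 587.5 bp for the regions themselves. It was at least 500 bp wide at 259 of the 592, or 43.8%. Whichever library set the limit, the partner in the other was narrower at the median. Both wide regions without a control overlap lay on chromosome 13 (119595642 to 119596148 and 119600820 to 119601363) over backgrounds of 25.7 and 24.4 reads.

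Position was not used to choose the regions. Gene ends are here the outermost bases of the RefSeq gene span, gene bodies are the rest of the span, and strand was not used. Of the wide regions 316, or 37.3% (34.1 to 40.6%), lay within 1 kb of an end of a protein-coding or long non-coding gene, against 22.9% of the other control regions and 23.5% of all. The difference was 14.4 percentage points (11.2 to 17.8). The share already rose with width among the other regions, from 20.8% below 200 bp to 27.3% at 300 bp to under 400 bp and 32.4% at 400 bp to under 500 bp. Among the wide regions it was 34.5% below 600 bp and 44.9% at 600 bp to under 800 bp. It was 37.9% at 800 bp to under 1000 bp and 21.2% (10.7 to 37.8%) at 1000 bp or more, where 21 of 33 regions had a background of 5 reads or more. Without such regions these shares were 41.5% and 33.3%. Gene bodies held 32.3% of the wide regions, against 44.7% of the others and 44.2% of all, a difference of -12.4 points (-15.5 to -9.07). Between genes lay 30.3%, against 32.4% of the others and 32.3% of all, a difference of -2.03 points whose interval, -5.10 to 1.22, includes 0. A wide region reaches a gene end more easily, and with distances measured from the summit base the gene end difference was 10.9 points, a check added after the data were seen. The other regions weighted to the same fold enrichment bins stood at 26.4% at gene ends.

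Starts, which take strand and alternative transcripts into account, came from a separate RefSeq promoter table. It lists starts inside gene spans and has no entry for some genes, such as Kdm3b. By those starts, 31 of the wide regions counted in gene bodies, Rsad1 among them, lay within 1 kb of a start, and 59 of those counted at gene ends had neither a listed start nor a 3′ end of a gene in the table within 1 kb. Regions at a gene end or a listed start together made up 40.97% (37.7 to 44.3%) of the wide regions, against 24.9% (24.3 to 25.5%) of the others. A listed start lay within 1 kb of 28.6% of wide regions, against 14.7% of the others, a difference of 13.9 points (10.9 to 17.1). A 3′ end lay within 1 kb of 9.33% of wide regions, against 5.93% of the others, a difference of 3.40 points (1.58 to 5.57). Promoter windows, 250 bases before to 50 bases after a start, were overlapped by 164 wide regions, or 19.4%, against 7.59% of the others and 8.1% of all. A wide region reaches a window, a start or a 3′ end more easily, so part of these differences follows from the rule. The control summit itself lay in a window at 91 of 847 wide regions and at 1031 of 18854 others. The shares at listed starts and 3′ ends were not recounted from the summit base. Gene starts on both strands lay within 1 kb of 35 wide regions, or 4.13%, against 1.94% of the others. One such region lay at Exosc8, the gene of an RNA exosome subunit (chromosome 3, 54734985 to 54735526). It had a fold enrichment of 19.3 in the library labelled CTCF knockout and 19.8 in the control. This region was named after its value was seen. The share overlapped in the library labelled CTCF knockout was close to equal by position, at 97.8% at gene ends, 97.1% in gene bodies and 98.4% between genes, while among the other regions it was 64.0%, 67.1% and 71.5% in the same order.

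**Figure D5:**
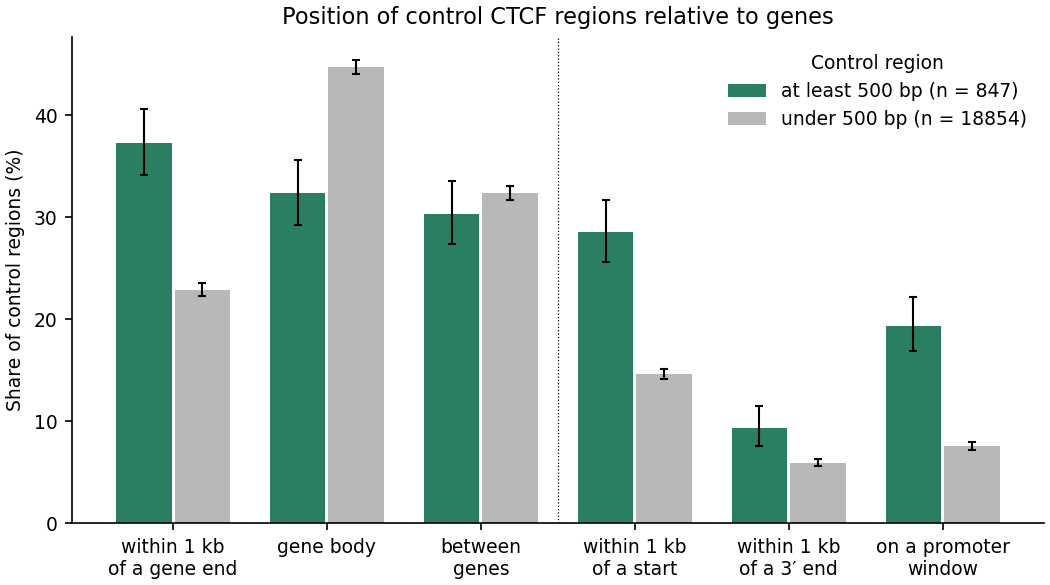
Share of control regions (y axis, %) by position relative to protein-coding and long non-coding genes, for the 847 regions of at least 500 bp (left bars) and the 18854 others (right bars), with Wilson 95% intervals. The first 3 pairs of bars sum to all regions, and the last 3 overlap with them. At gene ends the wide regions reach 37.3%, against 22.9% for the others, and in gene bodies they stand at 32.3%, against 44.7%.

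The core motif, CC and any 3 bases followed by AGGNGGC, was searched on both strands in RefSeq promoter windows of 300 bases. It was found in 47 of the 201 windows that wide regions overlap, or 23.4% (18.1 to 29.7%), in 19.8% (17.9 to 21.8%) of 1620 windows under other control regions, and in 3.48% of all 31396 windows. Where the control summit itself lay in the window, 39 of 107 windows of wide regions held it, or 36.4% (27.9 to 45.9%), against 24.7% (22.3 to 27.3%) of 1122 windows of other regions. Windows of neighbouring genes can overlap, so these counts are not independent. Fold enrichment was higher in wide regions, and motif shares were not compared at like fold enrichment. Counted by region, 34 of 91 wide regions with their summit in a window had a match, at a median of 21.5 bp from the summit, against 22 bp at the other regions. The shorter AGGNGGC, which is part of the core, was in 55.7% of the windows of wide regions, 54.6% of those of the others and 29.4% of all. A match is a description of the letters, not a measured binding site.

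Wide regions stood closer to other CTCF regions. The next control region was a median of 7241 bp away, against 14901 bp for the other regions. It lay within 10 kb at 55.3% of wide regions, against 41.3%, a difference of 13.995 points (10.6 to 17.4). Among wide regions with a background under 5 reads the median was 8492 bp and the share 53.3%. Regions of like fold enrichment were not compared for this. With wide regions linked at distances up to 100 kb, 240 of them had another wide region near, in 93 groups of at least 2 and 20 of at least 3.

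The largest of these groups outside the high-background loci was on chromosome 4, at 88757214 to 88803377, in a cluster of type I interferon genes between Klhl9 and Ifna7. Within 46.2 kb it held 17 regions of the library labelled CTCF knockout and 15 control regions, of which 10 were wide. All 10 lay at gene ends, at gene models such as Gm13279, Gm13289 and Gm13290, and all were overlapped in the library labelled CTCF knockout. Each of the 10 had both a listed start and a 3′ end within 1 kb, so they count in both of those shares above. Control widths were 508 to 829 bp, and partner widths in the library labelled CTCF knockout were 416 to 744 bp. Fold enrichments were 12.7 to 18.05 in the library labelled CTCF knockout and 12.3 to 19.6 in the control, with pileups of 25 to 38 reads in the library labelled CTCF knockout and 34 to 42 reads in the control. Neighbouring summits stood a median of 2906 bp apart in the library labelled CTCF knockout and 2922.5 bp in the control. The backgrounds stayed at or below 2.37 reads. The 300-base promoter windows of Gm13279 and Gm13290 were identical, and each shared 298 of 300 bases with that of Gm13289. A stretch of 60 bases, 210 to 151 bases before each start on the plus strand (RefSeq, GRCm38.p6), is shown because it holds 1 of the differing bases, in capitals. It lies at chr4:88797027-88797086 for Gm13279, at chr4:88776552-88776611 for Gm13289 and at chr4:88773624-88773683 for Gm13290.
Gm13279: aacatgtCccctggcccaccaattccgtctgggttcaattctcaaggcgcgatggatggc
Gm13289: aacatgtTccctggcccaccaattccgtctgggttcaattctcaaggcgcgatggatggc
Gm13290: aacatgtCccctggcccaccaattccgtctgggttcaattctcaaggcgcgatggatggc
With copies this alike, reads can be placed at any of them, so the values of the single regions of this cluster are uncertain.

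Groups also lay at single genes and gene pairs, and those given here were chosen after their values were seen. Within 7.99 kb at Pde4a, the gene of a cyclic AMP phosphodiesterase (chromosome 9, 21161160 to 21169153), 3 wide regions had fold enrichments of 12.2 to 13.97. In Gse1 (chromosome 8, 120288358 to 120319945) 3 wide regions had 10.2 to 13.97. At Ddost and Pink1, the gene of a kinase of mitochondrial quality control (chromosome 4, 138311469 to 138326503), 3 had 10.5 to 22.5. The wide regions of these groups were all overlapped in the library labelled CTCF knockout. Per chromosome, wide regions made up 5.97% of the control regions of chromosome 9 and 5.68% of those of chromosome 8, the highest shares, and 2.61% on chromosome 10 and 2.74% on chromosome 14, the lowest. Without the high-background regions chromosome 9 stood at 4.62%, the highest shares were 5.59% on chromosome 8 and 5.39% on chromosome 2, and the lowest were 2.49% on chromosome 14 and 2.61% on chromosome 10.

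Control regions were also counted near the genes of 14 lists for the heart and for chromatin. Of 472 control regions within 10 kb of a listed gene, 2.4% of all control regions, 24 were wide, or 5.08%, against 4.30% among all control regions, and 22 of the 24 were overlapped in the library labelled CTCF knockout. Ribosomal protein genes had 5 wide of 100 control regions, with Rpl38 the widest, at 741 bp and a fold enrichment of 6.83 in the library labelled CTCF knockout and 7.36 in the control. Histone modifiers had 4 of 60, namely Kdm3b, Kmt2b and 2 near Setd1b. Sarcomere genes had 3 of 45. In Tpm1, the gene of a tropomyosin, the fold enrichment was 7.02 in the library labelled CTCF knockout and 12.3 in the control, and in Tmod1, the gene of tropomodulin, it was 7.75 in the library labelled CTCF knockout and 8.04 in the control. The third was in Tnnt2, the gene of cardiac troponin T (chromosome 1, 135847020 to 135847548). It was 529 bp wide at a fold enrichment of 5.81 and 14 reads, with no overlap and the nearest region of the library labelled CTCF knockout 17.8 kb away. The list rule did not reach it, and it was named after its values were seen.

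Cardiac transcription factors had 2 wide of 29 control regions, both at Tbx2, a repressor of chamber genes in the developing heart. Their fold enrichments were 10.7 and 12.7 in the library labelled CTCF knockout and 13.5 and 12.01 in the control. Stress and fetal genes had 2 of 23. Of these the region 8.79 kb from Nr4a1, an immediate early nuclear receptor gene, was 827 bp wide, with 23.8 in the library labelled CTCF knockout and 17.3 in the control, and Egr1 had the other. Imprinted genes had 2 of 55 (Ube3a and Cdkn1c), Hox genes 1 of 21 (9.53 kb from Hoxa13), calcium handling and ion channel genes 1 of 54 (Itpr2), and CTCF and cohesin genes 1 of 18 (4.18 kb from Maz). Genes of energy metabolism had 0 of 25. Among markers of other heart cells, endothelial genes had 2 of 17 (Cdh5 and Vwf) and fibroblast genes 1 of 12 (Pdgfra), while immune genes had 0 of 5 and smooth muscle genes 0 of 14. Over the whole group, 34 of the 847 wide regions had no protein-coding gene within 100 kb, and the others were nearest to 768 different genes.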

How the data were processed

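CTCF ChIP-seq regions of 1 library labelled CTCF knockout and 1 control library were analysed, and the inputs were not used here. The tools named, per the submitters' processing notes, are MACS2, Bowtie2 2.2.6 and SAMtools 0.1.19, and the build is mm10. The sources used here do not state the MACS2 settings. Each deposited region has a score, a fold enrichment or ratio, and −log10 p and q values, made by the authors per library. All regions were used as deposited. Pileup and local background were recovered from the fold enrichment, taken as (pileup + 1) over (background + 1), and the −log10 p, taken as an upper Poisson tail. The deposited −log10 p was met within 0.000279. Shares have Wilson and differences Newcombe 95% intervals. Gene positions and promoter windows are RefSeq, GRCm38.p6. A genome was not used here, so motifs were searched in promoter windows in place of the planned bases around summits. Of 391 listed symbols 384 matched on chromosomes 1 to 19. The regions and gene lists were chosen with earlier results of these data known. The rule for named regions took the 10 widest, the 10 strongest, of those not overlapped the 5 widest and 5 strongest, the 5 with the widest partner, up to 5 holding 2 or more partner regions, up to 2 per gene list and the extreme chromosomes; each is named by the nearest protein-coding gene within 100 kb. One region that this rule names is not reported here. The computations were tested on simulated data. Python 3.11.15, numpy 2.4.6, pandas 2.3.3 and scipy 1.17.1 were used.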

Additional observations from a re-analysis of the deposited data

How the results depend on the processing

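Of the recomputed values, 27 stayed close to the reported value or count and 26 moved. Only differences have a direction, and none of them changed sign. The motif share could not move with a background under 5 reads, because no high-background wide region lay on a promoter window. The share of wide regions overlapped in the library labelled CTCF knockout (97.8%) was 95.02% with a limit of 400 bp, 99.1% with 600 bp, 93.9% among regions with a −log10 q of at least 5, 94.9% among regions enriched at least 5 times, 70.1% where each region covered 50% of the other, 87.1% with summits within 100 bp and 95.2% with the control summit base inside the other region. Its difference to the other regions (29.96 points) was 23.4 with the −log10 q limit, 24.8 with the fold limit, 10.8 with the reciprocal overlap, 22.9 with summits within 100 bp, 9.45 with fold bins and 7.25 with fold bins and a background under 5 reads. The gene end share (37.3%) was 41.4% at 600 bp, 64.1% with a window of 5 kb, 28.9% with 500 bp, 31.6% with protein-coding genes only and 32.3% from the summit base. Its difference (14.4 points) was 18.2 at 600 bp, 10.87 from the summit base and 10.88 with fold bins. The median partner width (411 bp) was 340.5 bp at a limit of 400 bp and 488.5 bp at 600 bp, and the number of wide regions in the library labelled CTCF knockout (594) was 1570 and 267. Regions near listed genes numbered 63 with windows of 50 kb, against 24. The cause of these differences was not tested. The background limit, the summit base distance and both fold bin comparisons other than the planned one were chosen after the data were seen. No paired analysis was possible because 1 library stands for each genotype and no result comes from a test. The depth of the libraries is unknown, which limits what a missing region can show.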

Other observations

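Regions of at least 500 bp outside chromosomes 1 to 19 were not part of the comparisons. On chromosome X there were 5 in the library labelled CTCF knockout and 3 in the control, on chromosome Y 9 in the library labelled CTCF knockout and 6 in the control, and on the mitochondrial genome 2 in the library labelled CTCF knockout and 1 in the control.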
